A study of Mus musculus with 6 samples.

Results

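The genes described here are the mouse zinc finger genes whose symbol is Zfp followed by a number of 3 digits, 900 or above. The RefSeq gene table of GRCm38.p6 lists 62 of them, and 57 had a row among the 24467 gene IDs of the count table. Of these, 56 had 10 or more reads in at least 2 of the 6 libraries and are described below, with numbers that run from 930 to 995. Zfp957 on chromosome 14 had 0 to 2 reads per library and is not described further. Zfp968, Zfp978, Zfp988, Zfp993 and Zfp996 had no row and were not analysed here. The choice used only the symbol and a minimum of reads, not a difference between groups, and all 56 genes also passed the filter of the test.

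The study sequenced RNA from mouse embryonic stem (ES) cells that had lost HP1 alpha, encoded by Cbx5, and HP1 beta, encoded by Cbx1. The control was 1 clone with floxed alleles of both genes (F/F), whose genotype the labels give as WT, and it was compared with clones 1 and 2 of the double knockout (DKO), with 2 libraries each. All cells were kept without treatment in the presence of LIF, knockout serum replacement, the GSK3 inhibitor CHIR99021 and the MEK inhibitor PD184352. Nothing in the labels tells separate cultures from repeat libraries of 1 culture. In the tests of single clones, p-values thus cover the spread between libraries alone, possibly a technical one. In DKO against control the libraries of both clones were pooled, so the difference between the clones also enters the spread. Since there was 1 control clone, genotype and clone cannot be told apart.

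Most proteins of this class carry a KRAB domain at one end and an array of C2H2 zinc fingers at the other. The fingers read a DNA sequence, often in a retroelement, and the KRAB domain binds the co-repressor TRIM28, which recruits the histone methyltransferase SETDB1 and HP1 proteins, so that the site gains methylated lysine 9 of histone H3. The genes multiplied by tandem duplication, lie in clusters of near copies, and differ between species. Zfp932 and its close relative Gm15446 are known to bind and restrain endogenous retroviruses in mouse ES cells.

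The features of the class were checked in translated GENCODE transcripts. A protein sequence was found for 54 of the 56, and 50 of these held the KRAB-A box pattern. The exceptions were Zfp953, Zfp956, Zfp972 and Zfp974. The proteins held a median of 11 fingers, from 0 in Zfp972 to 21 in Zfp974. The genes also share sequence with other genes, both within this set and outside it. In words of 50 bases, 34 of the 55 genes with a transcript had 10% or more of their transcript words in another gene, and 11 genes had 50% or more. Every transcript word of Zfp967 was also found in Zfp968, which has no row. Zfp965 shared 96.3%, Zfp987 89.0%, Zfp973 84.7%, Zfp960 82.7%, Zfp991 82.2% and Zfp980 71.3%. Zfp930, Zfp946, Zfp949 and Zfp951 shared between 0 and 1.7%. How reads that match several genes were counted is not given in the sources used here, so levels of the first group are uncertain between copies.

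**Figure D1:**
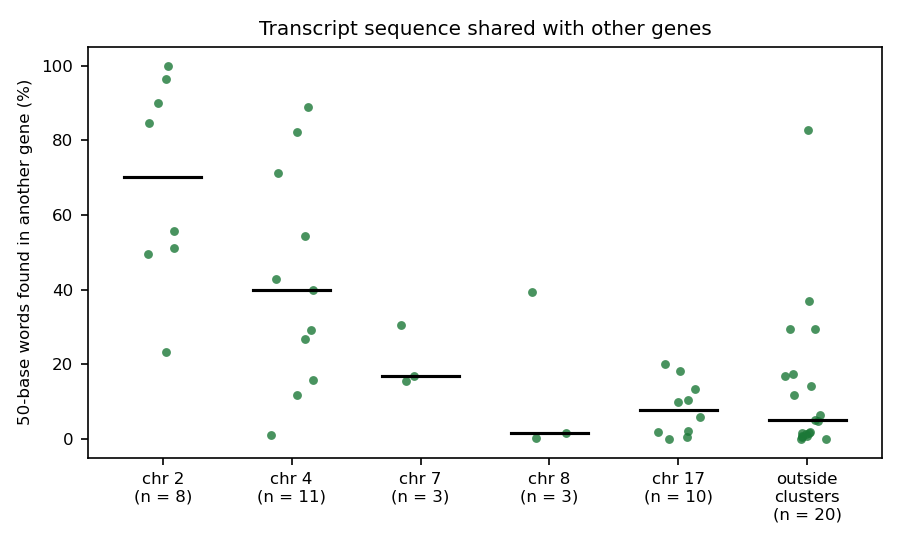
Share of the 50-base words of a gene's transcripts (y axis, percent) that also occur in another gene, by cluster (x axis); each point is 1 gene and the line is the median. Genes of the chromosome 2 cluster share most, with a median of 70.2%, and those of chromosome 4 have a median of 40.0%; Zfp977 of chromosome 7 has no transcript in the set and is not plotted.

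Grouping genes whose starts lie within 2 Mb of the next gave 5 clusters of 3 or more genes. They held 8 genes on chromosome 2 (GRCm38, 175470025 to 178078425), 11 on chromosome 4 (145510759 to 147849126), 4 on chromosome 7 (42579397 to 43192109), 3 on chromosome 8 (69209018 to 69749962) and 10 on chromosome 17 (21565816 to 22867309). The other 20 genes lay outside these clusters.

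Promoter sequence shows how alike the copies are and how the clusters differ. RefSeq windows of GRCm38.p6 were found for 50 of the 56 genes, and the 250 bases before each start site were examined. The pentamer CCAAT, on either strand, was found in 39 of the 50 windows, which is 78.0%, against 34.5% of 27025 promoter windows of the same length. It was present in 8 of 8 windows of the chromosome 2 cluster, 4 of 4 of chromosome 7 and 7 of 8 of chromosome 4, but in 3 of 10 of chromosome 17. Outside the clusters it was in 15 of 18. Windows of chromosomes 2 and 7 are near copies of each other, so the windows counted are not independent. The hexamers GGGCGG and CACGTG, again on either strand, were found in 32.0% and 14.0% of the members' windows, against 32.9% and 6.05% of all windows. GGGCGG was in 6 of 8 windows of chromosome 4, 6 of 10 of chromosome 17, 3 of 18 outside the clusters and none of the 8 of chromosome 2 or the 4 of chromosome 7. CACGTG was in 6 of 10 windows of chromosome 17 and in 1 window elsewhere, on chromosome 4. These words were chosen after the sequences were seen, and a match is a description of the letters and not a site in use.

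The next 6 stretches, from the coding strand just upstream of the start site, show the copies on chromosomes 2 and 7 with CCAAT in capitals. They were picked because the same arrangement recurs on both chromosomes. They lie at chr2:176520930-176520999 (+), chr2:178023196-178023265 (+), chr2:178078474-178078543 (-), chr2:177925678-177925747 (-), chr7:42592554-42592623 (-) and chr7:43177517-43177586 (+), in the order printed.
Zfp967: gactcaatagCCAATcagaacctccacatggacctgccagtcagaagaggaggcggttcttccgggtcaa
Zfp971: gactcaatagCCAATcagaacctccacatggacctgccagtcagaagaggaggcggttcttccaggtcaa
Zfp931: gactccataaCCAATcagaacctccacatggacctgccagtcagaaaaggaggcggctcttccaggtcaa
Zfp972: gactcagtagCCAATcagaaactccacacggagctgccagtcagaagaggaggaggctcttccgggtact
Zfp977: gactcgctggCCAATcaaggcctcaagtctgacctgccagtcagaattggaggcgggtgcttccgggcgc
Zfp936: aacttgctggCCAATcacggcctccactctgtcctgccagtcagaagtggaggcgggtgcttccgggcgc
Identity was taken over the aligned bases within the 250, with gaps left out, so it does not cover the whole window. Pairs of chromosome 2 genes had a median identity of 97.2%, from 80.6 to 100%. All 28 pairs had 150 or more aligned bases. The 6 pairs of chromosome 7 had a median of 91.9%.

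In windows picked from chromosome 4, and in that of Zfp947 on chromosome 17, the CCAAT word is inverted and runs into the GC box GGGCGG. The windows that hold this arrangement were not counted. In the next 6 stretches the capitals mark ATTGG with GGGCGG, which overlap, or in Zfp945 GGGCGG alone. They lie at chr4:145670610-145670659 (+), chr4:147642546-147642595 (-), chr4:147553195-147553244 (+), chr4:147809839-147809888 (-), chr17:22165991-22166040 (-) and chr17:22867158-22867207 (-).
Zfp980: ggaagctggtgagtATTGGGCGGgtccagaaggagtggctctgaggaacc
Zfp979: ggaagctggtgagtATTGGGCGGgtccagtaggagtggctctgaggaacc
Zfp985: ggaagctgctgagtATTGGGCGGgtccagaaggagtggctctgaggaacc
Zfp984: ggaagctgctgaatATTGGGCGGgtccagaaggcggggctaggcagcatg
Zfp947: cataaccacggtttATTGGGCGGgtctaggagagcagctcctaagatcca
Zfp945: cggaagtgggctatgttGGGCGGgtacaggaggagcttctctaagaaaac
Of 28 pairs of chromosome 4 windows, the 20 with 150 or more aligned bases had a median identity of 86.6%. On chromosome 17 only 23 of 45 pairs reached that length, and their median was 74.8%. The other pairs aligned over fewer bases and are left out of it. There was 1 near-identical pair, Zfp942 and Zfp944, at 99.6% over 225 aligned bases.

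Zfp942 and Zfp943 start back to back, and the stretch between them, chr17:21962504-21962558 (+), is printed because it is the whole gap between these genes. Its capitals mark CACGTG.
Zfp942_Zfp943: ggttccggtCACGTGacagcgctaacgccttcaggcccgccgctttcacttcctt
The pair was expressed at unequal levels. Zfp942 had 33.0 and 26.6 CPM in the control, 32.5 and 31.9 in clone 1 and 28.1 and 37.1 in clone 2, whereas Zfp943 had 8.62, 6.54, 7.79, 7.15, 7.87 and 8.70 CPM in the same libraries. CPM is the number of reads of a gene relative to all counted reads of the library, scaled between libraries by TMM.

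The libraries held 24628872 to 34641560 counted reads, and the zinc finger genes together took 0.348 to 0.388% of them. The targeted genes were lower in every DKO library: Cbx5 had 809 and 813 CPM in the control and 191 to 205 in the DKO, and Cbx1 had 223 and 227 against 43.9 to 49.3. The residual reads may cover exons outside the deleted part. The 8 ES cell markers (Pou5f1, Nanog, Esrrb and others) summed to 3608 to 3732 CPM in the control and 3805 to 3989 in the DKO. Markers of 2-cell-like cells, of which 16 of 18 had a row, summed to 150 to 152 CPM in the control. Their sums were 58.2 to 63.5 in clone 1 and 44.0 to 45.6 in clone 2. By the test used below, 11 of the 16 were lower in the DKO, against 3.62% of all tested genes. Fibroblast and feeder markers, with 1 of 10 at 0 in all libraries, summed to 9.61 to 11.4 CPM in the control and 5.25 to 7.23 in the DKO, and primitive endoderm markers to 4.69 to 5.30 and 3.75 to 4.78. The part of these cells in the results below was not tested, and in bulk RNA fewer cells of a type and less RNA per cell cannot be told apart.

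The level of these genes differed widely between clusters. Per kb of gene width, the median of the chromosome 4 cluster was 66.1 CPM, with single genes from 4.18 to 119. The other medians were 28.6 on chromosome 7, 4.97 on chromosome 2, 4.02 on chromosome 8, 2.88 on chromosome 17 and 4.48 outside the clusters. The 11 genes of chromosome 4 held 62.6% of the CPM of all 56 genes. The median share of words found in other genes also differed, from 70.2% on chromosome 2 and 40.0% on chromosome 4 to 7.81% on chromosome 17. How reads that match several genes were counted is not known, so levels are uncertain between clusters as well.

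**Figure D2:**
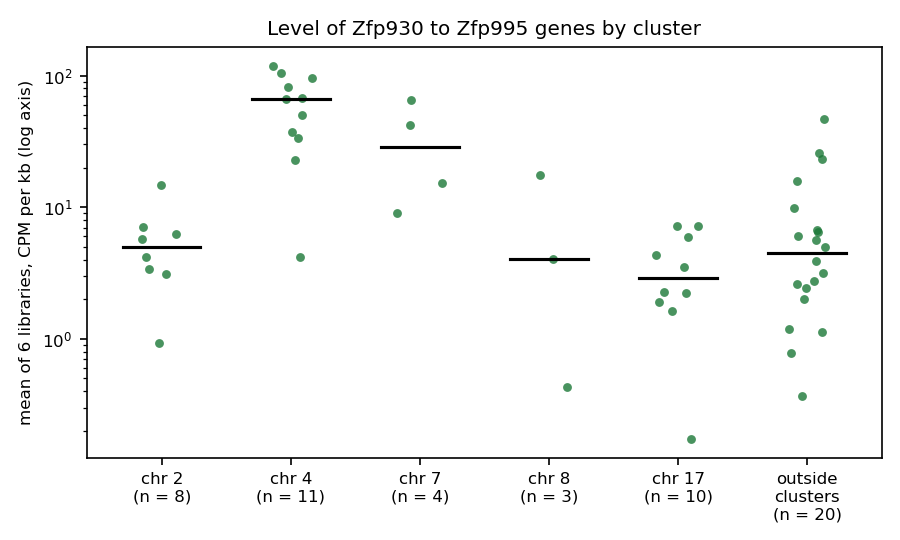
Mean level over the 6 libraries per kb of gene width (y axis, CPM per kb, log axis) of each of the 56 genes, by cluster (x axis); the line is the median. The chromosome 4 genes lie highest, with a median of 66.1, and those of chromosome 17 lowest, with a median of 2.88.

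All of the 5 highest genes per kb were from chromosome 4. Zfp980 (145670697 to 145704437; 119 CPM per kb) had 504 and 456 CPM in the control, 469 and 494 in clone 1 and 436 and 505 in clone 2. Zfp979 (147611936 to 147642508; 104 CPM per kb) had 458 and 446, then 410 and 469, then 371 and 416 CPM. In Zfp980 all groups overlapped, and in Zfp979 both clone 2 libraries lay below the control. Zfp985 (96.2 CPM per kb) stood at 287 and 274, 285 and 287, and 251 and 273 CPM, Zfp981 (82.4) at 286 and 243, 272 and 252, and 244 and 267, and Zfp990 (67.3) at 256 and 217, 226 and 232, and 221 and 260. Clone 2 of Zfp985 lay just below the other libraries, and the groups of Zfp981 and Zfp990 overlapped. The log2 change in DKO against control lay between -0.12 and -0.01 for the 5 genes, with SE of 0.0703 to 0.0872. Zfp980 shares 58.5% of its words with Rex2, a KRAB zinc finger gene in the same cluster that had 398 CPM in the control and 413 in the DKO. Outside chromosome 4, Zfp936 of chromosome 7 (65.9 CPM per kb) and Zfp961 of chromosome 8 (47.0) were highest. At the other end, Zfp983 of chromosome 17 had 0.174 CPM per kb.

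The main comparison asked whether loss of both HP1 proteins altered the expression of these genes. None of the 56 passed in DKO against control (edgeR quasi-likelihood test, Benjamini-Hochberg adjusted p under 0.05 over 14771 genes), where 8.69% of all tested genes did, 5.06% as higher and 3.62% as lower. DESeq2 also called 0. At an unadjusted p under 0.05, 1 was higher, Zfp992, and 2 were lower, Zfp971 and Zfp960, where 1763 and 1670 of all tested genes passed. The median log2 change was -0.02, against 0.00038 over all tested genes and -0.02 over 289 other numbered Zfp genes, of which 10 passed. Leaving out control replicate 1 moved the median of the 56 to 0.07, and leaving out control replicate 2 moved it to -0.10, so its sign was set by the control library used. Without clone 2 replicate 2, Zfp971 passed (adjusted p = 0.0457).

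The changes of the zinc finger genes were also small in size. They ran from -0.65 for Zfp972 to 0.30 for Zfp946, and the 10th and 90th percentiles were -0.19 and 0.16. These percentiles were -0.25 and 0.28 over the 289 other numbered Zfp genes, and -0.46 and 0.41 over all tested genes. For 49 of the 56 the change with 2 SE on either side stayed within 1.5-fold. The same held for 226 of the 289 other numbered Zfp genes and for 8845 of all 14771 tested genes. Of the 56, 1 had all DKO libraries above both control libraries and 2 had all below, which is 1.79% and 3.57%. Over all tested genes these shares were 16.9% each way. The gene above was Zfp930, with 50.5 and 49.3 CPM in the control, 53.3 and 53.4 in clone 1 and 55.2 and 56.4 in clone 2, and the genes below were Zfp960 and Zfp971. The log2 change of Zfp930 was 0.13 with an adjusted p of 0.326 in edgeR.

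Most of the larger changes were in genes of low level. Zfp974 of chromosome 7 had 3.67 and 2.91 CPM in the control, 2.12 and 2.16 in clone 1 and 2.69 and 3.11 in clone 2 (log2 change -0.39, edgeR adjusted p = 0.336). Clone 1 lay below the control and clone 2 overlapped it. Zfp959 of chromosome 17 had 12.9 and 8.70 CPM, then 8.15 and 8.94, then 9.27 and 9.75, so that 1 control library stood above the other 5. Its log2 change was -0.26, and 0.05 without control replicate 1. Zfp964 of chromosome 8 had 4.02 and 3.16, 3.23 and 2.80, and 3.77 and 2.74 CPM, with overlapping groups (log2 change -0.20). Zfp972, which codes for a short protein with no finger, had 0.73 and 1.39 CPM in the control and 0.57 to 0.76 in the DKO.

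Among the 5 genes with the largest positive changes, none had all DKO libraries above the control. Zfp992 of chromosome 4 had 164 and 148 CPM in the control, 184 and 187 in clone 1 and 158 and 186 in clone 2 (log2 change 0.20, SE 0.084, edgeR adjusted p = 0.187). Zfp991, in the same cluster, had 12.5 and 10.9, 12.5 and 15.3, and 12.2 and 12.6 CPM (log2 change 0.17). Of the words of Zfp992, 37.5% are also found in Zfp991, so their reads cannot be told apart with certainty. Zfp947 of chromosome 17 had 5.68 and 4.40 CPM in the control, 5.20 and 4.56 in clone 1 and 6.38 and 6.67 in clone 2, with both clone 2 libraries highest (log2 change 0.18, and 0.37 in clone 2 alone, adjusted p = 0.180).

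Each clone was then set against the control in a fit of 3 groups. In clone 1, 2 of the 56 genes rose and 2 fell, where 15.3% of all tested genes passed, 8.79% as higher and 6.47% as lower. In clone 2, 1 rose and none fell, where 15.0% passed, 7.89% as higher and 7.08% as lower. At an unadjusted p under 0.05, clone 1 had 3 genes higher and 6 lower, where 2211 and 2059 of all 14771 genes passed, and clone 2 had 1 higher and 3 lower, where 2155 and 2125 passed. The medians were -0.03 and 0.02. The 2 contrasts share the control libraries, so they are not independent.

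**Figure D3:**
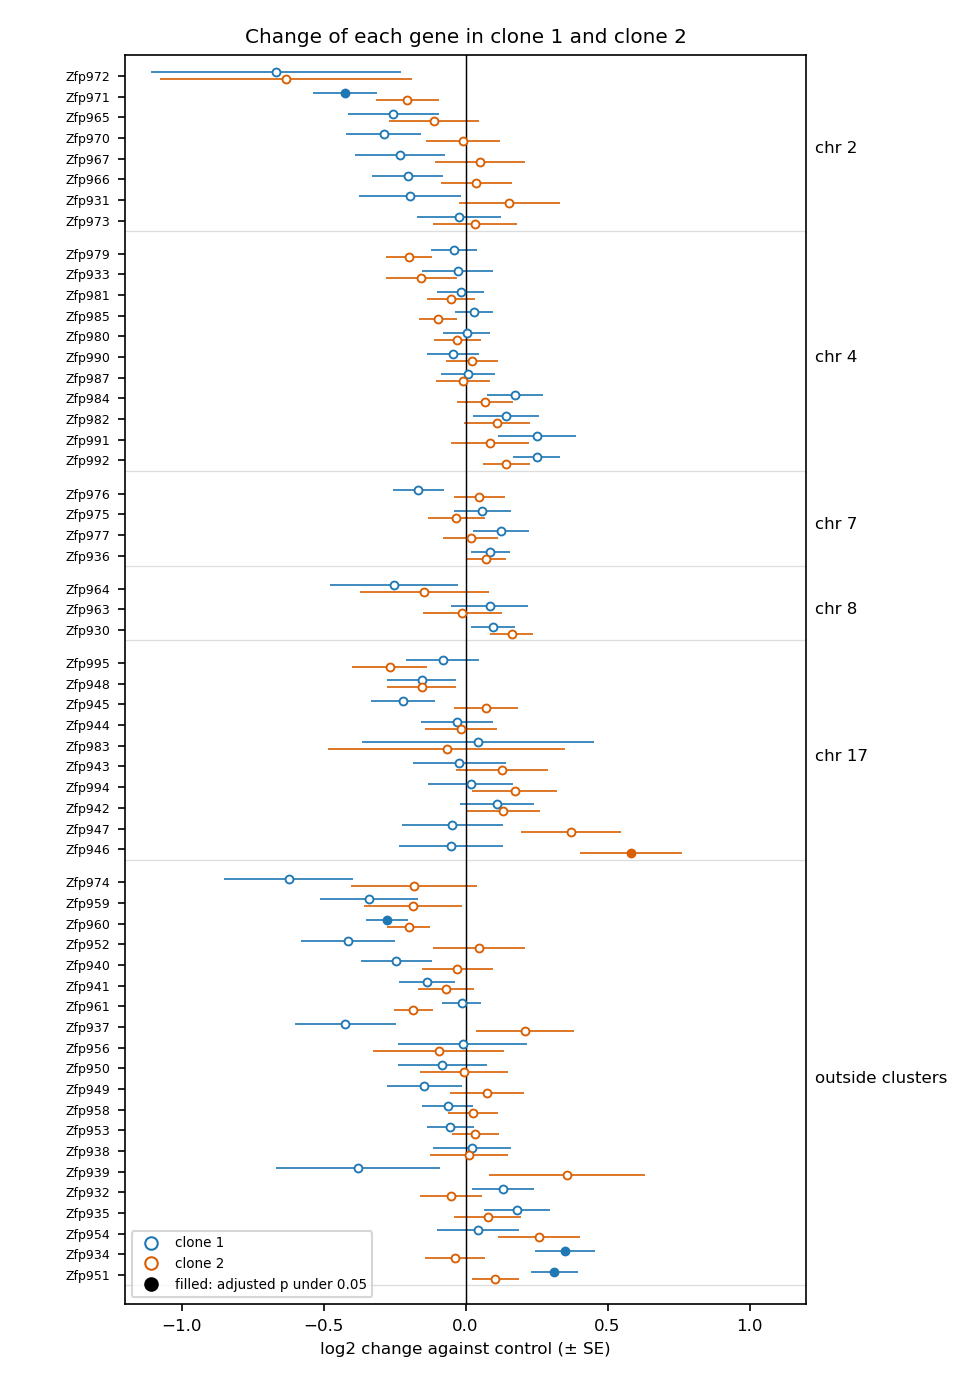
Log2 change against the control (x axis, with bars of 1 SE) of each of the 56 genes in clone 1 (blue) and clone 2 (orange), ordered by cluster; filled points have an adjusted p under 0.05. Most genes lie near 0; the filled points are Zfp971, Zfp960, Zfp934 and Zfp951 in clone 1 and Zfp946 in clone 2.

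Zfp951 (Entrez 626391, chromosome 5, 104802246 to 104860157) codes for a protein with 10 fingers and shares 1.4% of its words with other genes. It had 116 and 106 CPM in the control, 143 and 133 in clone 1 and 111 and 128 in clone 2. Both clone 1 libraries were above all others, while clone 2 overlapped the control. The rise in clone 1 was 0.31 on the log2 scale (SE 0.0818, edgeR adjusted p = 0.0202), and the change in clone 2 was 0.10 (adjusted p = 0.442). The call ended without control replicate 2 (0.139) and without clone 1 replicate 1 (0.136).

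Zfp934 (Entrez 77117, chromosome 13, 62516795 to 62579321), with 11 fingers, had 36.5 and 33.8 CPM in the control, 41.6 and 47.9 in clone 1 and 31.2 and 37.2 in clone 2. Clone 1 was again above all other libraries. It rose in clone 1 by 0.35 (SE 0.105, edgeR adjusted p = 0.0402), had a change of -0.04 in clone 2, and was lower in clone 2 than in clone 1 by the test of that difference. Its call against the control ended without control replicate 1 (0.0706), control replicate 2 (0.173) or clone 1 replicate 2 (0.240). It shares 29.5% of its words, most with Zfp808, and its neighbour Zfp935 passed in none of the 4 comparisons.

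Zfp971 and Zfp960 were the genes that fell in clone 1, and both belong to sets of near copies. Zfp971 (Entrez 626848, chromosome 2, 178023284 to 178035859), whose promoter stretch is printed above, had 38.1 and 34.9 CPM in the control, 25.0 and 29.4 in clone 1 and 28.8 and 34.5 in clone 2. The log2 change was -0.42 in clone 1 (SE 0.112, edgeR adjusted p = 0.0207) and -0.21 in clone 2 (0.246), and all DKO libraries lay below the control, 1 of them by little. The call in clone 1 ended without control replicate 1 (0.130) and without clone 1 replicate 1 (0.174). Zfp971 shares 51.1% of its words with other genes, most with Zfp968.

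Zfp960 (Entrez 449000, chromosome 17, 17064103 to 17089631) had 70.4 and 68.5 CPM in the control, 57.5 and 57.1 in clone 1 and 59.0 and 61.8 in clone 2. Its libraries agreed closely within each group, and every DKO library was below the control. The log2 change was -0.28 in clone 1 (SE 0.0744, edgeR adjusted p = 0.0233), -0.20 in clone 2 (0.0919) and -0.24 over both clones (0.0702). The call in clone 1 ended without either control library (0.0993 and 0.0598) and without either clone 1 library (0.107 and 0.0974). Of its words 81.4% are also found in Zfp97, so the reads of these genes cannot be told apart with certainty.

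Zfp946 (Entrez 74149, chromosome 17, 22424182 to 22456689), with 11 fingers and 1.7% of words shared, was the gene that rose in clone 2. It had 8.30 and 5.48 CPM in the control, 6.46 and 6.86 in clone 1 and 10.6 and 10.1 in clone 2, so that clone 2 was above the other 4 libraries. The log2 change was 0.58 in clone 2 (SE 0.179, edgeR adjusted p = 0.0443) and -0.05 in clone 1. The call ended without control replicate 2 (0.287), clone 2 replicate 1 (0.172) or clone 2 replicate 2 (0.126).

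**Figure D4:**
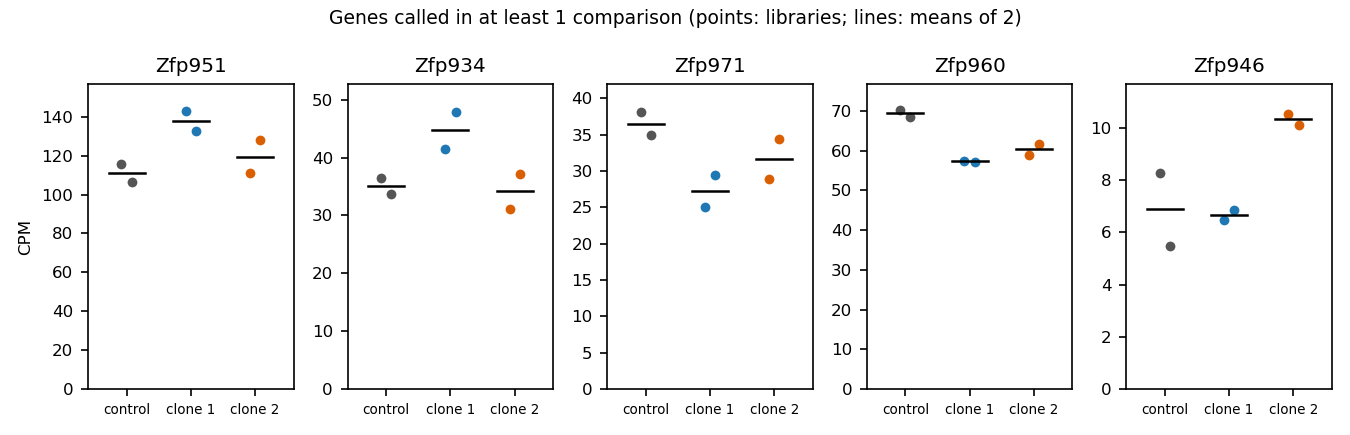
CPM (y axis, from 0) of the 5 genes that passed in at least 1 comparison, in the control, clone 1 and clone 2 (x axis); each point is 1 library and the line is the mean of the 2. In Zfp951 and Zfp934 clone 1 is highest, in Zfp946 clone 2 is highest, and in Zfp971 and Zfp960 the control is highest.

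Clone 2 was also tested directly against clone 1. Only Zfp934 passed among the 56, lower by a log2 change of -0.39 (SE 0.106, edgeR adjusted p = 0.0482), where 6.30% of all tested genes passed, 2.53% as higher and 3.77% as lower. At an unadjusted p under 0.05, 7 of the 56 were higher and 3 lower in clone 2, and 1413 and 1626 of all tested genes. Its call ended without each library but control replicate 1, with adjusted p of 0.0537 to 0.305. Zfp937 of chromosome 2, outside the cluster, had 5.88 and 5.73 CPM in the control, 4.95 and 3.70 in clone 1 and 6.86 and 6.56 in clone 2. Its difference between the clones was 0.63 (adjusted p = 0.0542), and that of Zfp946 was also 0.63 (0.0585). Neither passed, although in both genes the clone 2 libraries were above those of clone 1.

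In most clusters and comparisons the genes lay on both sides of 0, and the one-sided counts on chromosomes 2 and 4 changed when single libraries were left out. On chromosome 2, 8 of 8 genes were below 0 in clone 1 against control, with a median of -0.24, and 8 of 8 were above 0 in clone 2 against clone 1, with a median of 0.23. Without control replicate 1 the first count was 5 of 8 and the median -0.07. Without clone 1 replicate 1 the second count was 6 of 8 and the median 0.15. Of these genes only Zfp971 passed a test. They share a median of 70.2% of their words with other genes, so they may share reads and are not separate observations. The 15 other tested genes within the same span, mostly with provisional Gm symbols, had a median of -0.23 in clone 1, with 1 gene called higher and 1 lower. Zfp970 shares 27.8% of its words with 1 of them, Gm14288, so these medians may rest in part on the same reads.

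On chromosome 4, 10 of 11 genes were below 0 in clone 2 against clone 1, with a median of -0.11. These genes share a median of 40.0% of their words with other genes, so they too are not separate observations. Without clone 2 replicate 1 the count was 3 of 11 and the median 0.02, so the direction turned. On chromosome 17, 7 of 10 were above 0 in the same comparison, with a median of 0.09, and 4 of 10, with a median of -0.02, without clone 2 replicate 2. In DKO against control, the cluster medians were -0.11 on chromosome 2, -0.01 on chromosome 4, 0.04 on chromosomes 7 and 8, and 0.02 on chromosome 17. No other tested gene inside the 5 spans passed in that comparison.

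Summed over the chromosome 4 cluster, CPM was 2461 and 2209 in the control, 2333 and 2428 in clone 1 and 2111 and 2430 in clone 2. The spread within the control and within clone 2 was wider than the differences between group means. The chromosome 2 cluster summed to 140 and 114, 103 and 109, and 116 and 132 CPM, and that of chromosome 17 to 166 and 139, 142 and 150, and 147 and 172. Among these 3 clusters, clone 1 on chromosome 2 lay below the control by a small margin, and the other sums overlapped it. The chromosome 7 cluster summed to 386 and 373 CPM in the control, 398 and 393 in clone 1 and 368 and 414 in clone 2. That of chromosome 8, most of it from Zfp930, summed to 65.1 and 63.3, 69.0 and 66.5, and 70.1 and 69.4. Clone 1 on chromosome 7 and all 4 DKO libraries on chromosome 8 thus lay above the control.

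Libraries of the same clone differed across these genes together. Control replicate 1 was above control replicate 2 for 48 of the 56 genes, with a median difference of 0.15 on the log2 scale, against 7322 of 14771 and -0.0017 over all tested genes and 174 of 289 and 0.04 over other numbered Zfp genes. By cluster, it was higher in 10 of 10 genes of chromosome 17, 7 of 8 of chromosome 2 and 10 of 11 of chromosome 4, with medians of 0.32, 0.32 and 0.20. Clone 2 replicate 2 was above replicate 1 for 42 of the 56, and for 11 of 11 on chromosome 4, with a median over the 56 of 0.14. The same was so for 7427 of all 14771 tested genes, with a median of 0.00083, and 165 of 289 other numbered Zfp genes, with 0.01. In clone 1 the median over the 56 was 0.02. Gene IDs without a match in the reference made up 1.62% of control replicate 1, 0.744% of clone 2 replicate 2 and between 0.389 and 0.484% of the other 4 libraries. The part of this in the difference between libraries was not tested.

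**Figure D5:**
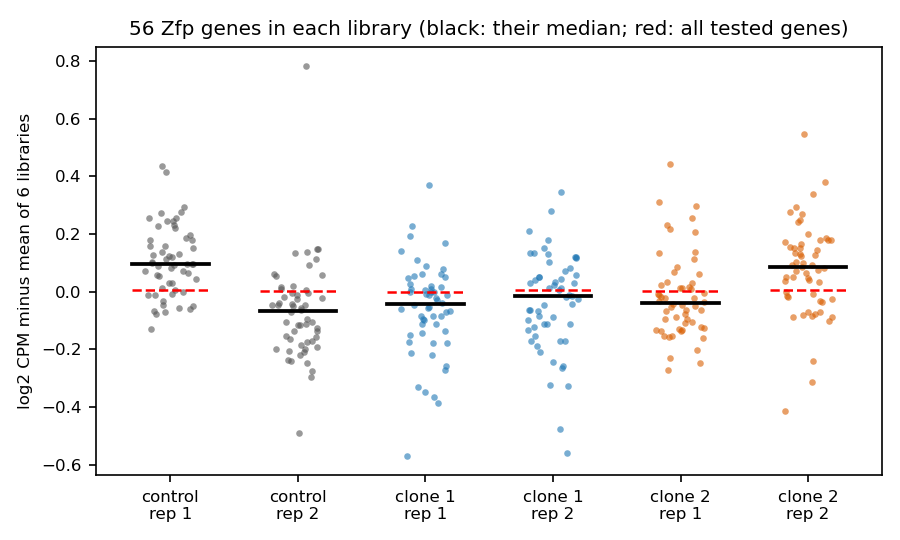
Log2 CPM of each of the 56 genes in each library, less the gene's mean over the 6 libraries (y axis), by library (x axis); the black line is the median of the 56 genes and the red dashed line that of all tested genes. Control replicate 1 and clone 2 replicate 2 have medians of 0.10 and 0.09, and the other libraries lie between -0.07 and -0.02, while all tested genes stay near 0.

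Chromosomes 3 and 6 stood higher in the DKO libraries as whole chromosomes, by medians of 0.08 to 0.29 and 0.43 to 0.51 on the log2 scale. Zfp956 of chromosome 6 is the only one of the 56 genes on either of them. It had 3.73 and 3.47 CPM in the control, 3.48 and 3.66 in clone 1 and 4.18 and 2.59 in clone 2, and the groups overlapped. Its log2 change was -0.05 as counted, and -0.52 once the median shift of every chromosome had been subtracted, called centring below (edgeR adjusted p = 0.189).

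The partners through which KRAB zinc finger proteins act were measured in the same libraries, as a list of 30 genes. In DKO against control 4 rose, 2 fell (Cbx5 and Cbx1, the targeted genes) and 24 did not pass, with a median of 0.01. Of all tested genes 5.06% passed as higher and 3.62% as lower. Trim28, the KRAB co-repressor, had 1000 and 947 CPM in the control and 863 to 921 in the DKO, below the control in every library (log2 change -0.13, edgeR adjusted p = 0.246). Setdb1, its methyltransferase partner on chromosome 3, had 207 and 215 CPM in the control, 274 and 259 in clone 1 and 198 and 211 in clone 2. It passed in clone 1 (0.34, edgeR adjusted p = 0.0041) and not over both clones (0.16, adjusted p = 0.479), where its log2 change was -0.04 after centring. It was also lower in clone 2 than in clone 1 (-0.38, adjusted p = 0.0054). Chromosome 3 as a whole stood higher by 0.29 and 0.27 in the clone 1 libraries and by 0.10 and 0.08 in those of clone 2. Chd3, an ATPase of the NuRD complex that TRIM28 recruits, rose from 16.9 and 17.8 CPM to 42.8 to 53.8, with all DKO libraries above the control (1.49, adjusted p = 0.00032).

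The other genes of the list that rose lie on chromosome 6. Cbx3, which codes for HP1 gamma, had a mean of 332 CPM in the control and 462 in the DKO, with log2 changes of 0.48 as counted and 0.0030 after centring, and its adjusted p was 0.0582 without control replicate 1. Smarcad1, a chromatin remodeller, had a change of 0.59 and 0.12 after centring. Resf1, a partner of SETDB1, had 0.31 and -0.16, and its adjusted p was 0.109 and 0.162 without control replicate 1 and 2. As counted, Atf7ip (0.16, edgeR adjusted p = 0.142) and Chd4 (0.11, 0.360), both of chromosome 6, did not pass. In both genes all DKO libraries lay above the control. Only with centring did Atf7ip (-0.31, edgeR adjusted p = 0.0236) and Chd4 (-0.37, 0.0067) pass as lower.

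Of 13 KRAB zinc finger genes outside the number range, 1 fell and 12 did not pass, with a median of -0.12. Of all tested genes 3.62% passed as lower. The gene that fell was Zfp57, which protects imprinted loci, with 600 and 530 CPM in the control and 389 to 459 in the DKO (log2 change -0.40, edgeR adjusted p = 0.0116, and 0.183 without control replicate 1). Gm15446 had 6.38 and 5.70 CPM in the control and 5.98 to 6.86 in the DKO, and its relative Zfp932 had 16.4 and 15.9, 17.1 and 18.3, and 15.7 and 15.4 CPM. The groups of Gm15446 overlapped, and in Zfp932 the control lay between clone 1 above and clone 2 below. Their log2 changes in DKO against control were 0.09 and 0.04, with SE of 0.143 and 0.11.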

How the data were processed

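RNA was sequenced from 6 libraries of mouse ES cells, 2 each of a control clone and 2 double-knockout clones, grouped by their titles. The deposited table holds, for every Entrez gene, its width and whole-number counts of reads; the authors aligned reads with STAR 2.5.0a to mm10 (GRCm38), per the submitters' processing notes. Not given in the sources used here are the counting tool, the annotation release, the counted strand and how reads matching several genes were handled.

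Symbols and positions came from RefSeq GRCm38.p6 for 24437 of 24467 IDs; the 30 unmatched IDs held 0.389 to 1.62% of a library's reads. In R 4.3.3 with edgeR 4.0.16, filterByExpr left 14771 genes, scaled by TMM (factors 0.992 to 1.01) and tested by quasi-likelihood, two-sided, with Benjamini-Hochberg adjustment over all of them and a threshold of 0.05. DKO against control used genotype alone, and the other contrasts a fit of 3 groups. SE came from the F statistic. The fits were tested on simulated data. Chi-square per gene between libraries of a group was 44.4, 11.8 and 12.5, where 1 is expected of a split library.

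Transcript words of 50 bases and translated proteins came from the GENCODE transcripts provided. Zinc fingers and KRAB-A boxes were counted by letter patterns, and promoter windows were compared by global alignment. Identity is the share of aligned bases that match, with gaps not counted. Levels between genes are CPM per kb of the deposited width.

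The genes, lists and tests were chosen with earlier results of these data known. Named genes are those called in any comparison, the 5 highest per kb, the 5 largest log2 changes per direction at 1 CPM or more, those on chromosomes 3 and 6, and called genes of the lists with Cbx5, Cbx1, Cbx3, Trim28 and Setdb1. Zfp930, Zfp932, Zfp935, Zfp936, Zfp937, Zfp942, Zfp943, Zfp961, Zfp972, Zfp983, Rex2, Gm15446, Atf7ip, Chd4 and the genes named for their sequence were chosen after their values were seen. Alternatives were other scaling and filters, DESeq2 1.42.0, a replicate block, centred chromosomes and leaving out each library.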

Additional observations from a re-analysis of the deposited data

Results flagged for a closer look

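Zfp934 is listed because the clones differed in it by a direct test. Its level was lower in clone 2 than in clone 1 by a log2 change of -0.39 (edgeR adjusted p = 0.0482 over 14771 genes), with 41.6 and 47.9 CPM in clone 1 and 31.2 and 37.2 in clone 2. The control libraries had 36.5 and 33.8 CPM. Without control replicate 1 the adjusted p was 0.0491, and it was above 0.05 without each of the other 5 libraries.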

How the results depend on the processing

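In DKO against control no gene passed under RLE scaling, other filters, DESeq2, centred chromosomes or the replicate block, and leaving out 1 library gave 0 to 1. In clone 1 the count of 4 was 1 to 5 when 1 library was left out. In clone 2 the count of 1 was 0 to 1, and 2 without a filter on low counts. Between the clones the count of 1 was 4 without a filter, 2 with DESeq2 and 0 to 2 with 1 library left out. With the replicate number as a block it was 2 (Zfp934 and Zfp946), and the other counts did not change. Over all tested genes, same-numbered libraries did not deviate together (correlations 0.03, -0.08 and 0.03). These values cannot show whether the numbers pair the libraries in a smaller set of genes. The median in DKO against control ran from -0.10 to 0.0706 over the left-out libraries. Log2 changes that changed sign in that comparison ranged from -0.15 to 0.0692 for Zfp956, -0.51 to 0.0543 for Zfp959, -0.0799 to 0.0627 for Zfp980, -0.14 to 0.0895 for Zfp981, -0.0625 to 0.0079 for Zfp985 and -0.12 to 0.12 for Zfp990. With centred chromosomes they were -0.16 for Resf1 and -0.0362 for Setdb1. Over named genes and alternatives, 345 values kept direction and side of the threshold, 25 lost and 1 gained a call, and 13 changed sign. The cause of these changes was not tested.

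Limits are 2 libraries per clone, 1 control clone and near-identical gene copies. At levels of about 1 CPM, as in Zfp972, the SE reached 0.364 on the log2 scale.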
